A study of Homo sapiens with 12 samples.

Results

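Between 1 h and 3 h of chase, 16 of 21 immediate early genes and 215 of 381 zinc-finger genes named ZNF fell as a share of the labelled RNA of 2 human melanoma lines, and on the same scale (TMM) 58 of 82 ribosomal protein genes rose. On a scale that holds the glycolytic mRNAs constant 1 of those 82 rose. Of all 13703 genes tested, 16.1% fell and 12.9% rose on the TMM scale. The lists were chosen with earlier results of these data known. The measurement is BRIC-seq. Cells take up 5-bromouridine, the label is removed, and RNA that still carries it is pulled down with an antibody and sequenced. A gene's share of the captured RNA falls where its transcripts decay faster than the captured RNA as a whole. Here the 3 h libraries were set against the 1 h libraries, which are 4 of the 12 libraries in the series, and all 60675 Ensembl gene rows of the count table were members. A count filter kept 13703 of them for testing.

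The groups were A375 at 3 h of chase, the MIR211 line at 3 h, A375 at 1 h and the MIR211 line at 1 h, with 1 library in each. A375 is an established melanoma line with an activated BRAF gene. The MIR211 line, labelled A375/211, is A375 that overexpresses MIR211, which encodes the microRNA miR-211. Both lines were grown in the same medium and carried the same 5-bromouridine label at both times, and the labels do not say whether the derived line is 1 clone or a pool. The 2 lines stood in as pairs, so each change is an average over both. Nothing in the labels says that the libraries came from separate cultures, so the p-values measure the spread between these libraries. They name no spiked-in RNA either, so every rise and fall below is relative to the other captured RNA, and a rise does not mean that more of a transcript was made.

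An mRNA's life span is set by how fast its tail is shortened, its cap removed and its body degraded. Messages of immediate early genes, which cells switch on within minutes of a growth signal, and of many transcription factors carry AU-rich elements and other destabilising features in their 3′ untranslated regions and turn over quickly. Messages for ribosomal proteins, glycolytic enzymes and cytoskeletal proteins are among the longest-lived. In BRAF-activated melanoma cells the ERK pathway keeps many of the short-lived messages transcribed.

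Total gene counts were 6807681 and 6255576 at 3 h in A375 and the MIR211 line, against 3949014 and 4534806 at 1 h. Although the 3 h libraries were deeper, they held 22948 and 21880 genes with a count, against 24043 and 23849 at 1 h. The mitochondrial 16S ribosomal RNA, MT-RNR2, took 15.1% and 16.7% of the counts at 3 h and 9.01% and 10.4% at 1 h. The part that depth and this share play in the changes below was not tested. MIR211 itself was under the filter, with 2 counts at 3 h and 11 counts at 1 h in the MIR211 line and 0 counts in both A375 libraries. Of 12 melanoma markers, 10 were tested, and TYR, the pigment enzyme tyrosinase, had no count in any of the 4 libraries. Levels are given as CPM, counts scaled to a common library total after TMM normalisation. Summed over the 9 keratinocyte markers the level was 3.01 and 2.90 CPM at 3 h and 3.14 and 4.12 CPM at 1 h.

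Of the 13703 genes tested, 1769 rose (12.9%) and 2207 fell (16.1%) at 3 h against 1 h by edgeR's quasi-likelihood test with Benjamini-Hochberg adjustment at 0.05. Falls were larger than rises. The median called fall was -1.65 on the log2 scale and the median called rise was 0.80, while the median over all genes tested was 0.03. A change of at least 1 log2 unit was found in 80.9% of the genes that fell and in 24.3% of those that rose. Among the genes that fell, 80 had 3 or fewer counts in each line at 3 h, and 18 of these had none in either line. Each of the 3976 called genes (29.0% of those tested) moved the same way in both lines, and so did 10945 of all 13703 tested (79.9%). The test averages the lines and counts their disagreement as spread, so agreement in sign among called genes is largely built in. Leaving out the A375 1 h, A375 3 h, MIR211 line 1 h or MIR211 line 3 h library left 151, 209, 308 and 190 rises in turn and 467, 670, 688 and 605 falls. In all 8 fits that left out 1 library of the time course, 94 rises and 372 falls were called.

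The scale decides where the line between rising and falling lies. Scaled to total counts, the median gene moved by -0.22 on the log2 scale relative to the TMM scale used here, and 675 genes rose and 2741 fell. With the glycolytic mRNAs held constant it moved by -0.96, and 25 genes rose and 7567 fell. The list counts below are on the TMM scale, with the counts on the other scales beside the lists whose members rose or were split.

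**Figure D1:**
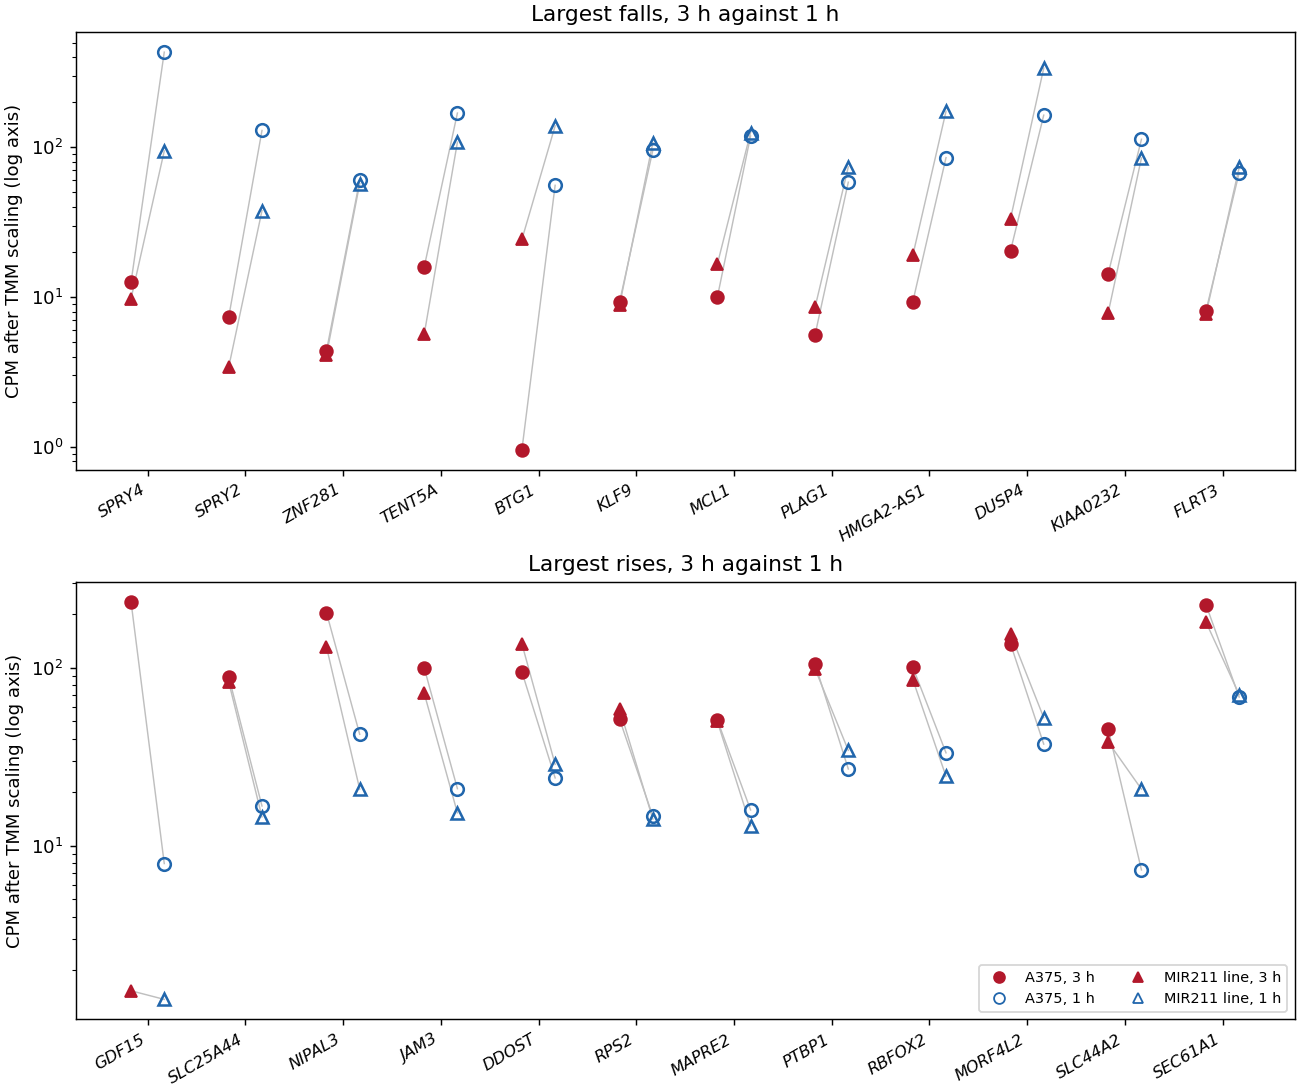
Levels of the 12 genes with the largest falls (top) and the 12 with the largest rises (bottom) among named genes at a mean log2 CPM of at least 5. Each point is 1 library on a log axis in CPM after TMM scaling, filled for 3 h and open for 1 h, with a grey line joining the 2 libraries of a line. The genes were picked by the size of the change, with one sign in both lines, so separation of the times is partly built in. In the bottom panel GDF15 is high in 1 of the 4 libraries, A375 at 3 h, at 234 CPM.

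Among named genes at a mean log2 CPM of at least 5, SPRY4 and SPRY2 fell most. They encode Sprouty proteins, which restrain receptor tyrosine kinase signalling to ERK. SPRY4 had 12.6 and 9.73 CPM at 3 h in A375 and the MIR211 line, against 431 and 94.5 CPM at 1 h, a log2 change of -4.20 ± 0.48 (SE, edgeR adjusted p = 0.0041). SPRY2 had 7.38 and 3.41 CPM at 3 h, against 129 and 37.7 CPM at 1 h, a change of -3.84 ± 0.29 (adjusted p = 0.00195). In both genes A375 had the higher level at each time.

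ZNF281, a zinc-finger transcription factor, had nearly the same levels in both lines. It stood at 4.37 and 4.10 CPM at 3 h and at 60.1 and 57.1 CPM at 1 h, a log2 change of -3.78 ± 0.17 (edgeR adjusted p = 0.00136). KLF9, a Krüppel-like factor induced by glucocorticoids, had 9.29 and 8.88 CPM at 3 h, against 95.7 and 107 CPM at 1 h, a change of -3.46 ± 0.25 (adjusted p = 0.00179). For MCL1, the short-lived survival protein of the BCL2 family, the values were 9.97 and 16.6 CPM at 3 h and 119 and 125 CPM at 1 h, a change of -3.25 ± 0.24 (adjusted p = 0.00179). The lines lay close together at each time in all 3 genes and far apart between times.

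DUSP4, a nuclear phosphatase that switches off ERK, had 20.4 and 33.3 CPM at 3 h and 164 and 337 CPM at 1 h, a log2 change of -3.17 ± 0.18 (edgeR adjusted p = 0.00136). HMGA2-AS1, a long non-coding RNA antisense to HMGA2, had 9.29 and 19.0 CPM at 3 h and 85.2 and 174 CPM at 1 h, a change of -3.20 ± 0.14 (adjusted p = 0.00136). In both genes the MIR211 line was higher at each time. BTG1, an antiproliferative protein that recruits the deadenylase complex, was less even: 0.956 and 24.2 CPM at 3 h, against 55.7 and 139 CPM at 1 h, a change of -3.63 ± 0.96 (adjusted p = 0.0348). TENT5A (a poly(A) polymerase), PLAG1 (a zinc-finger transcription factor), KIAA0232 and FLRT3 (a cell-adhesion protein) complete the 12, with changes from -3.75 to -3.16. Of the 12, all but BTG1 and PLAG1 were called in each of the 8 fits that left out 1 library.

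Of the 12 rises named at that level, GDF15 had the largest. GDF15, a stress-induced secreted factor and p53 target, had 234 CPM at 3 h against 7.96 CPM at 1 h in A375, but 1.54 CPM at 3 h against 1.37 CPM at 1 h in the MIR211 line. Its averaged log2 change of 4.09 ± 0.92 (edgeR adjusted p = 0.0223) therefore rested on A375, and without the A375 1 h library it was 0.52 (adjusted p = 0.576). DESeq2 gave 2.18 (adjusted p = 0.203).

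NIPAL3, a magnesium transporter-like membrane protein, had 204 and 131 CPM at 3 h in A375 and the MIR211 line, against 42.3 and 20.8 CPM at 1 h, a log2 change of 2.44 ± 0.21 (edgeR adjusted p = 0.00245). The 0 h libraries held 157 and 84.8 CPM of it, so the 1 h libraries were the low ones. RPS2, a protein of the small ribosomal subunit, showed the same order, with 36.4, 14.7 and 51.2 CPM at 0, 1 and 3 h in A375 and 32.8, 14.1 and 58.6 CPM in the MIR211 line. JAM3, a junctional adhesion molecule, had 99.9 and 71.9 CPM at 3 h, against 20.9 and 15.3 CPM at 1 h, a change of 2.25 ± 0.32 (adjusted p = 0.00654). Here the 0 h libraries were lower than those at 1 h in both lines.

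DDOST, a subunit of the oligosaccharyltransferase that glycosylates proteins in the endoplasmic reticulum, had 94.7 and 136 CPM at 3 h and 24.1 and 28.7 CPM at 1 h, a log2 change of 2.11 ± 0.13 (edgeR adjusted p = 0.00136). PINK1-AS, whose annotated span overlaps DDOST on the same strand, was at 22.4 and 31.2 CPM at 3 h and had no count in either 1 h library. Against a floor of 3 counts in each 1 h library it was at least 35.7-fold higher at 3 h in A375, and the bound was larger in the MIR211 line. It was chosen after its values were seen, and reads of the 2 genes cannot be told apart where they overlap. PTBP1, the splicing repressor, had 105 and 98.5 CPM at 3 h and 27.0 and 34.4 CPM at 1 h, a change of 1.73 ± 0.16 (adjusted p = 0.00292). SEC61A1, the pore of the translocon, had 226 and 181 CPM at 3 h and 68.5 and 70.7 CPM at 1 h, a change of 1.54 ± 0.19 (adjusted p = 0.00486). SLC25A44, MAPRE2, RBFOX2, MORF4L2 and SLC44A2 complete the 12, with changes from 1.58 to 2.46. NIPAL3, DDOST, RPS2 and PTBP1 were called in all 8 fits that left out 1 library.

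**Figure D2:**
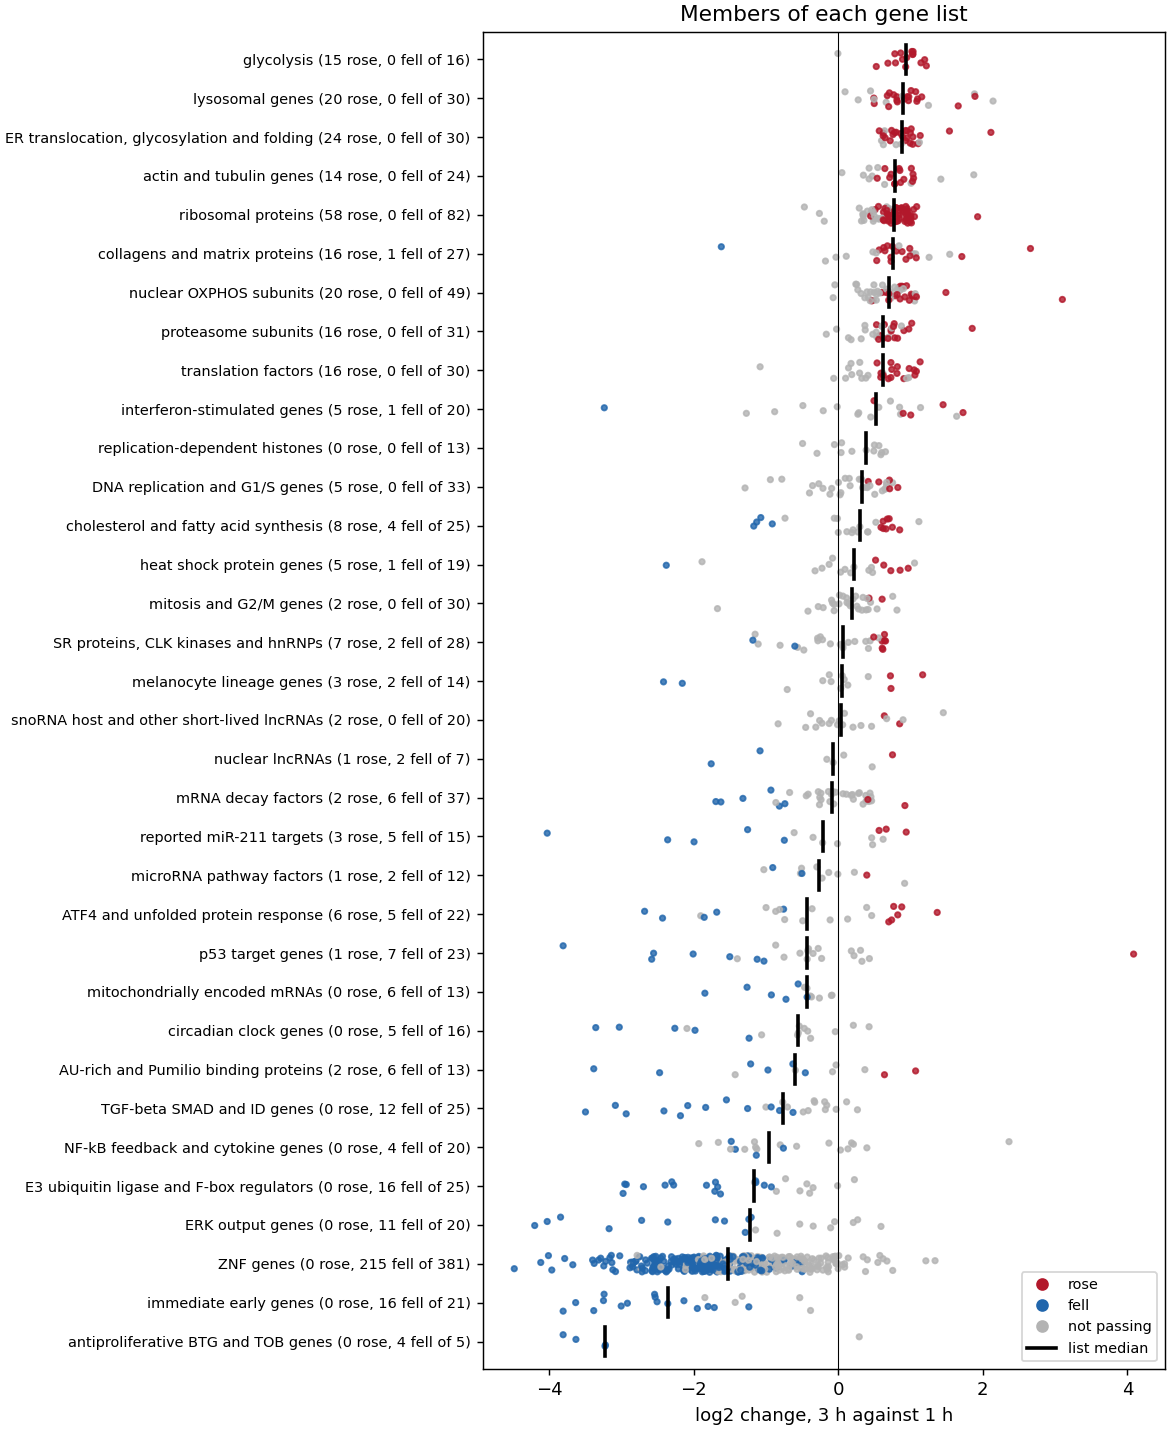
The log2 change at 3 h against 1 h (x axis) of the tested members of each gene list (rows, sorted by the list median). Each dot is 1 gene, red where it rose, blue where it fell and grey where it did not pass, black bars mark list medians and row labels give the counts. BTG and TOB genes (median -3.23) and immediate early genes (median -2.36) sit lowest, and glycolysis (median 0.94) sits highest of the lists drawn. Cell type marker lists, the melanoma markers included, and lists with fewer than 5 tested members are not drawn.

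Gene lists are described by their counts and medians, to be read against the 12.9% of all tested genes that rose, the 16.1% that fell and the overall median of 0.03. Of 21 immediate early genes tested, 16 fell and none rose, with a median of -2.36. They included the transcription factors EGR3 and KLF6 and the regulator IER5. EGR3 had 2.87 and 2.73 CPM at 3 h in A375 and the MIR211 line, against 21.6 and 24.0 CPM at 1 h, a log2 change of -3.00 ± 0.22 (edgeR adjusted p = 0.00183). KLF6 had 1.23 and 1.88 CPM at 3 h and 13.6 and 15.7 CPM at 1 h, a change of -3.24 ± 0.28 (adjusted p = 0.00245). The 5 that did not pass were SRF, CCN2, ATF3, MAFF and ZFP36L1. Of the 16 falls, 6 were called in all 8 fits that left out 1 library.

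Of 20 genes whose transcription follows ERK activity, 11 fell and none rose (median -1.22). DUSP6, the cytoplasmic ERK phosphatase, had 1.37 and 4.44 CPM at 3 h, against 57.6 and 36.9 CPM at 1 h, a log2 change of -4.03 ± 0.52 (edgeR adjusted p = 0.00514). PHLDA1 kept a gap between the lines, with 34.6 and 139 CPM at 3 h and 252 and 836 CPM at 1 h, a change of -2.72 ± 0.17 (adjusted p = 0.00139). SPRED2, a Sprouty-related inhibitor of RAF activation, changed by -1.57 ± 0.16 (adjusted p = 0.00324). The Sprouty, SPRED and DUSP genes, feedback inhibitors of the pathway, made up 7 of the 11 falls, while the transcription factors ETV1, ETV4 and ETV5 and the cyclin CCND1 did not pass. In all 8 fits that left out 1 library 7 of the list were called.

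Among the 5 BTG and TOB genes, whose proteins bridge mRNAs to deadenylases, 4 fell (median -3.23), 2 of them in all 8 fits that left out 1 library, and BTG3 did not pass. TOB1 had 3.01 and 5.46 CPM at 3 h and 38.3 and 39.1 CPM at 1 h, a log2 change of -3.23 ± 0.31 (edgeR adjusted p = 0.00309). TOB2 had 2.19 and 3.24 CPM at 3 h and 22.2 and 28.5 CPM at 1 h, a change of -3.22 ± 0.23 (adjusted p = 0.00178). BTG2, with 2.19 and 0 CPM at 3 h and 26.2 and 5.89 CPM at 1 h, changed by -3.81 ± 0.72 (adjusted p = 0.0134).

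Zinc-finger genes named ZNF formed the largest list, and 215 of 381 fell and none rose, with a median of -1.53. Many encode transcriptional repressors of the KRAB family. ZNF134 had 4.37 and 5.63 CPM at 3 h, against 39.1 and 47.9 CPM at 1 h, a log2 change of -3.12 ± 0.20 (edgeR adjusted p = 0.00152). ZNF26 and ZNF90 changed by -2.80 ± 0.19 and -2.43 ± 0.20. In all 8 fits that left out 1 library, 50 of the 381 were called. The members share the zinc-finger coding repeat, so reads can be assigned among near copies with some uncertainty.

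Of 25 E3 ubiquitin ligase and F-box genes, 16 fell and none rose (median -1.16). TOPORS, a ligase for ubiquitin and SUMO, had 12.4 and 13.0 CPM at 3 h and 100.1 and 97.0 CPM at 1 h, a log2 change of -2.95 ± 0.17 (edgeR adjusted p = 0.00136). SIAH2, the ligase of the hypoxia response, had 3.28 and 3.76 CPM at 3 h and 22.2 and 23.6 CPM at 1 h, a change of -2.70 ± 0.24 (adjusted p = 0.00258). FBXO30 and RNF111 changed by -2.40 ± 0.17 and -1.71 ± 0.13. MDM2, CBL and BIRC3 were among the 9 that did not pass, and 8 of the list were called in all 8 fits that left out 1 library.

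Of 25 TGF-beta, SMAD and ID genes, 12 fell and none rose (median -0.77), and 1 was called in all 8 fits that left out 1 library. BAMBI, a decoy receptor of the pathway, had 1.78 and 2.73 CPM at 3 h and 21.8 and 16.5 CPM at 1 h, a log2 change of -3.08 ± 0.31 (edgeR adjusted p = 0.00324). ID3, an inhibitor of helix-loop-helix factors, changed by -2.93 ± 0.47 and the receptor ACVR2A by -1.83 ± 0.27. Of the signal-carrying SMAD genes, SMAD1 fell, while SMAD2, SMAD3, SMAD4, SMAD5 and SMAD9 did not pass.

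Among 16 clock genes 5 fell and none rose (median -0.56), 1 of them in all 8 fits that left out 1 library. The nuclear receptors RORA and NR1D1 and the repressor BHLHE40 changed by -1.98 ± 0.20, -2.26 ± 0.40 and -3.03 ± 0.56. BMAL1, CLOCK, CRY1 and the PER genes did not pass. Of 20 NF-kB feedback and cytokine genes, 4 fell and none rose (median -0.96), a share of falls near that of all genes, and none was called in all 8 of those fits. PTGS2, the inducible cyclooxygenase, had 3.55 and 226 CPM at 3 h and 6.91 and 357 CPM at 1 h, so that the lines differed far more than the times did. IL1A and TNFAIP3 changed by -1.42 ± 0.35 and -1.13 ± 0.27.

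Of 23 p53 target genes, 7 fell and GDF15 rose (median -0.43), and 1 of the list was called in all 8 fits that left out 1 library. By total counts 1 rose and 8 fell, and with the glycolytic mRNAs held constant 1 rose and 18 fell. AEN, an apoptosis-enhancing nuclease, had 7.24 and 4.61 CPM at 3 h and 48.2 and 23.6 CPM at 1 h, a log2 change of -2.55 ± 0.28 (edgeR adjusted p = 0.00367). PPM1D, the phosphatase that ends the p53 response, had 23.2 and 8.19 CPM at 3 h and 131 and 55.2 CPM at 1 h, a change of -2.58 ± 0.37 (adjusted p = 0.00669). PLK2, a kinase induced by p53, changed by -2.01 ± 0.30. CDKN1A and MDM2, among the best-known targets, did not pass.

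Lists of factors that control decay held both rises and falls. Of 37 mRNA decay factors 6 fell and 2 rose (median -0.08), a share of falls near that of all genes. By total counts none rose and 10 fell, and with the glycolytic mRNAs held constant none rose and 29 fell. CNOT4 and the decapping activator DCP1B changed by -1.62 ± 0.18 and -1.69 ± 0.25. Of 13 proteins that bind AU-rich or Pumilio elements, 6 fell and 2 rose (median -0.59), with no rise and 6 falls by total counts and no rise and 11 falls with the glycolytic mRNAs held constant. PUM2 had 187 and 181 CPM at 3 h and 302 and 268 CPM at 1 h, a log2 change of -0.63 ± 0.12 (edgeR adjusted p = 0.0123). ZFP36L2, which recruits deadenylases to AU-rich elements, changed by -2.47 ± 0.31, and 1 library of its relative ZFP36 at 3 h had no count. Of 12 microRNA pathway factors 2 fell (16.7%) and 1 rose (8.33%), near the 16.1% and 12.9% of all genes. By total counts none rose and 3 fell, and with the glycolytic mRNAs held constant none rose and 11 fell. The silencing scaffold TNRC6A changed by -0.91 ± 0.19.

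Of 82 ribosomal protein genes 58 rose and none fell (median 0.77), but 27 rose by total counts, and with the glycolytic mRNAs held constant 1 rose and 6 fell. In all 8 fits that left out 1 library 6 of the 82 were called. RPS4X had 408 and 497 CPM at 3 h in A375 and the MIR211 line, against 211 and 254 CPM at 1 h, a log2 change of 0.96 ± 0.09 (edgeR adjusted p = 0.00277). RPL5 and RPL7 changed by 0.99 ± 0.09 and 1.01 ± 0.11. Of 30 translation factors 16 rose and none fell (median 0.62), with 9 rises by total counts and, with the glycolytic mRNAs held constant, no rise and 10 falls, and 3 were called in all 8 of those fits. The elongation factor EEF1A1 had 729.9 and 1111 CPM at 3 h and 360.3 and 468 CPM at 1 h, a change of 1.13 ± 0.10 (adjusted p = 0.00245), and the initiation factor subunit EIF3I changed by 1.08 ± 0.12. Ribosomal protein and EEF1A1 messages have many processed pseudogenes, so their counts may be split among copies. EEF1G also changed by 1.05 ± 0.12.

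Of 16 glycolytic genes 15 rose and none fell (median 0.94), 4 of them in all 8 fits that left out 1 library. By total counts 9 rose, and on the scale set by these genes themselves 1 rose and 1 fell. GAPDH had 746 and 1077 CPM at 3 h, against 295 and 502 CPM at 1 h, a log2 change of 1.22 ± 0.10 (edgeR adjusted p = 0.00243). ENO1, PGK1 and LDHA changed by 1.03 ± 0.09, 1.02 ± 0.10 and 0.95 ± 0.09, although LDHA lay at -0.01 on that last scale. Of 49 nuclear-encoded subunits of oxidative phosphorylation 20 rose and none fell (median 0.70). By total counts 11 of them rose, and with the glycolytic mRNAs held constant none rose and 8 fell. No member was called in all 8 fits that left out 1 library. ATP5PF and ATP5PB, of the peripheral stalk of ATP synthase, changed by 1.02 ± 0.16 and 0.88 ± 0.11, the second turning to -0.07 with the glycolytic mRNAs held constant.

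Of 30 genes of endoplasmic reticulum translocation, glycosylation and folding, 24 rose and none fell (median 0.88), with 17 rises by total counts and 2 rises and no fall with the glycolytic mRNAs held constant. In all 8 fits that left out 1 library 6 were called. The disulfide isomerase P4HB had 71.1 and 99.5 CPM at 3 h and 33.3 and 45.9 CPM at 1 h, a log2 change of 1.10 ± 0.11 (edgeR adjusted p = 0.0033), and PDIA6 changed by 0.99 ± 0.10. Of 30 lysosomal genes 20 rose and none fell (median 0.90), with 15 rises by total counts and no rise and 3 falls with the glycolytic mRNAs held constant, and 3 were called in all 8 of those fits. PSAP, the precursor of the saposins, had 250.5 and 401 CPM at 3 h and 122 and 187 CPM at 1 h, a change of 1.07 ± 0.10 (adjusted p = 0.00274). The membrane proteins LAMP1, LAPTM4A and CD63 changed by 1.15 ± 0.15, 1.01 ± 0.11 and 0.97 ± 0.13.

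Of 27 collagen and matrix genes 16 rose and COL5A1 fell (median 0.75), with 13 rises by total counts and, with the glycolytic mRNAs held constant, 1 rise and 8 falls. In all 8 fits that left out 1 library 3 were called. SPARC, a secreted collagen-binding protein, had 411 and 3032 CPM at 3 h and 213 and 1482 CPM at 1 h, a log2 change of 0.99 ± 0.08 (edgeR adjusted p = 0.00243), with the MIR211 line above A375 at both times. NID1, a basement membrane linker, changed by 0.99 ± 0.10. COL5A1, a fibrillar collagen chain, had 25.8 and 24.1 CPM at 3 h and 86.5 and 67.6 CPM at 1 h, a change of -1.62 ± 0.16 (adjusted p = 0.00314). Summed over the 10 fibroblast markers the level was 11.1 and 104 CPM at 3 h and 4.40 and 59.5 CPM at 1 h, none of the 5 tested passed, and their part in the matrix result was not tested.

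Of 24 actin and tubulin genes 14 rose and none fell (median 0.78), with 5 rises by total counts and, with the glycolytic mRNAs held constant, no rise and 1 fall, and 1 was called in all 8 fits that left out 1 library. PFN1 and TPM3, which bind actin, changed by 1.03 ± 0.12 and 1.03 ± 0.14, and the intermediate filament gene VIM by 0.86 ± 0.12. Of 31 proteasome subunit genes 16 rose and none fell (median 0.62), but 4 rose by total counts, and with the glycolytic mRNAs held constant none rose and 9 fell. Again 1 was called in all 8 of those fits. PSMB4 had 224 and 337 CPM at 3 h and 120 and 179 CPM at 1 h, a log2 change of 0.91 ± 0.09 (edgeR adjusted p = 0.00319), and PSMB3 and PSMD8 changed by 1.85 ± 0.35 and 1.02 ± 0.18.

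Some pathways held members on both sides, and of the 4 lists that follow 1, 1, 2 and 0 members in turn were called in all 8 fits that left out 1 library. Of 25 genes of cholesterol and fatty acid synthesis 8 rose and 4 fell (median 0.30). INSIG1, the sterol sensor that retains SREBP in the endoplasmic reticulum, had 53.4 and 56.5 CPM at 3 h and 112 and 129 CPM at 1 h, a log2 change of -1.13 ± 0.14 (edgeR adjusted p = 0.0048). SCD, the fatty acid desaturase, had 1765 and 1570.2 CPM at 3 h and 1034 and 1007 CPM at 1 h, a change of 0.70 ± 0.09. By total counts 3 rose and 4 fell, and with the glycolytic mRNAs held constant none rose and 15 fell, SCD among those below 0.

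Of 22 genes of the ATF4 and unfolded protein responses 6 rose and 5 fell (median -0.43), with 2 rises and 6 falls by total counts and no rise and 12 falls with the glycolytic mRNAs held constant. PPP1R15B, the constitutive eIF2-alpha phosphatase subunit, had 23.2 and 24.2 CPM at 3 h and 149 and 155 CPM at 1 h, a log2 change of -2.68 ± 0.18 (edgeR adjusted p = 0.00169). The transcription factors CEBPB and XBP1 changed by -2.43 ± 0.41 and -1.85 ± 0.32. SLC7A5, an amino acid transporter and ATF4 target, had 54.7 and 252 CPM at 3 h and 32.7 and 146 CPM at 1 h, a change of 0.77 ± 0.12, and lay at -0.19 with the glycolytic mRNAs held constant.

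Of 19 heat shock genes 5 rose and 1 fell (median 0.22). HSP90AA1 and HSPD1 changed by 0.85 ± 0.09 and 0.97 ± 0.11, while the co-chaperone DNAJB1 had 6.01 and 2.39 CPM at 3 h and 25.5 and 17.5 CPM at 1 h, a log2 change of -2.38 ± 0.43 (edgeR adjusted p = 0.0119). By total counts 3 rose and 1 fell, and with the glycolytic mRNAs held constant none rose, 13 fell and HSP90AA1 lay at -0.10. Of 20 interferon-stimulated genes 5 rose and 1 fell (median 0.53), with 3 rises and 2 falls by total counts and no rise and 7 falls with the glycolytic mRNAs held constant. The class I light chain B2M had 43.3 and 116 CPM at 3 h and 25.3 and 26.1 CPM at 1 h, a change of 1.45 ± 0.34 (adjusted p = 0.0254), while IFITM3 and OAS3 changed by 1.00 ± 0.23 and 0.90 ± 0.15. IFIT2 fell, with 0 and 0.512 CPM at 3 h and 1.67 and 3.14 CPM at 1 h.

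For cell-cycle genes the direction depended on the scale. Of 30 genes of mitosis and G2/M 2 rose and none fell (median 0.18), while none rose or fell by total counts and none rose and 22 fell with the glycolytic mRNAs held constant. Of 33 genes of DNA replication and G1/S 5 rose and none fell (median 0.32), with 1 rise and 1 fall by total counts and no rise and 14 falls with the glycolytic mRNAs held constant. No member of either list was called in all 8 fits that left out 1 library. The mitotic kinesin KIF20A changed by 0.61 ± 0.16 and the ribonucleotide reductase subunit RRM1 by 0.71 ± 0.13, and both lay below 0 with the glycolytic mRNAs held constant, at -0.35 and -0.25. None of 13 replication-dependent histone genes was called by edgeR or DESeq2, and 0 had an unadjusted p under 0.05. Of 28 SR protein, CLK kinase and hnRNP genes 7 rose and 2 fell (median 0.06), but by total counts 1 rose and 3 fell, and with the glycolytic mRNAs held constant none rose and 20 fell. None of the 28 was called in all 8 of those fits. HNRNPA2B1 changed by 0.62 ± 0.09, or -0.34 with the glycolytic mRNAs held constant, and the splicing factor SRSF4 by -1.18 ± 0.19.

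Of 14 melanocyte lineage genes 3 rose and 2 fell (median 0.04), with 1 rise and 2 falls by total counts and no rise and 7 falls with the glycolytic mRNAs held constant. SOX10, the lineage transcription factor, had 56.2 and 15.9 CPM at 3 h and 186 and 128 CPM at 1 h, a log2 change of -2.42 ± 0.43 (edgeR adjusted p = 0.0114). GPNMB, a melanosome glycoprotein, had 80.9 and 222 CPM at 3 h and 37.5 and 95.4 CPM at 1 h, a change of 1.17 ± 0.11 (adjusted p = 0.00299). Of the 7 nuclear long non-coding RNAs tested, 1 rose and 2 fell, the same numbers as by total counts, and with the glycolytic mRNAs held constant none rose and 5 fell. MALAT1, which is retained in nuclear speckles, had 14230.2 and 26718 CPM at 3 h and 8344 and 16106 CPM at 1 h, a change of 0.75 ± 0.07 (adjusted p = 0.00309), or -0.21 with the glycolytic mRNAs held constant. The imprinted antisense transcript KCNQ1OT1 and FTX, a regulator of X inactivation, changed by -1.76 ± 0.26 and -1.08 ± 0.28. Of 20 snoRNA host and other short-lived long non-coding RNAs, 2 rose and none fell, while by total counts none rose and 1 fell, and with the glycolytic mRNAs held constant none rose and 12 fell. No small structural RNA passed the count filter.

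Mitochondrially encoded transcripts, which are cut from polycistronic precursors, did not move together. Both ribosomal RNAs rose. MT-RNR2 had 140830 and 178382 CPM at 3 h in A375 and the MIR211 line, against 74493 and 92712 CPM at 1 h, a log2 change of 0.93 ± 0.12 (edgeR adjusted p = 0.00559), or -0.02 with the glycolytic mRNAs held constant. MT-RNR1 changed by 0.97 ± 0.16. Of the 13 mRNAs 6 fell and none rose (median -0.43), 2 of them in all 8 fits that left out 1 library. By total counts 11 fell, and with the glycolytic mRNAs held constant all 13 fell.

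MT-ND1 and MT-ND2, the first mRNAs after the ribosomal RNAs and subunits of complex I, fell most of the 13. MT-ND1 had 959 and 546 CPM at 3 h and 3237 and 2097 CPM at 1 h, a log2 change of -1.85 ± 0.10 (edgeR adjusted p = 0.00136), and MT-ND2 had 2013 and 1268 CPM at 3 h and 4449 and 3295 CPM at 1 h, a change of -1.26 ± 0.09 (adjusted p = 0.00179). Their nuclear copies, such as MTND1P23 with a change of -1.82 ± 0.10, can share reads with them. MT-ND5 and MT-CYB changed by -0.93 ± 0.12 and -0.72 ± 0.12. MT-CO1, a subunit of complex IV, had 34501 and 25734 CPM at 3 h and 36130 and 27982 CPM at 1 h, a change of -0.10 ± 0.14 that did not pass (adjusted p = 0.624). Of the 19 transfer RNA genes tested 5 fell and none rose. MT-TN and MT-TY, which lie on the other strand between MT-ND2 and MT-CO1 and were chosen after their values were seen, changed by -2.35 ± 0.30 and -2.19 ± 0.28.

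**Figure D3:**
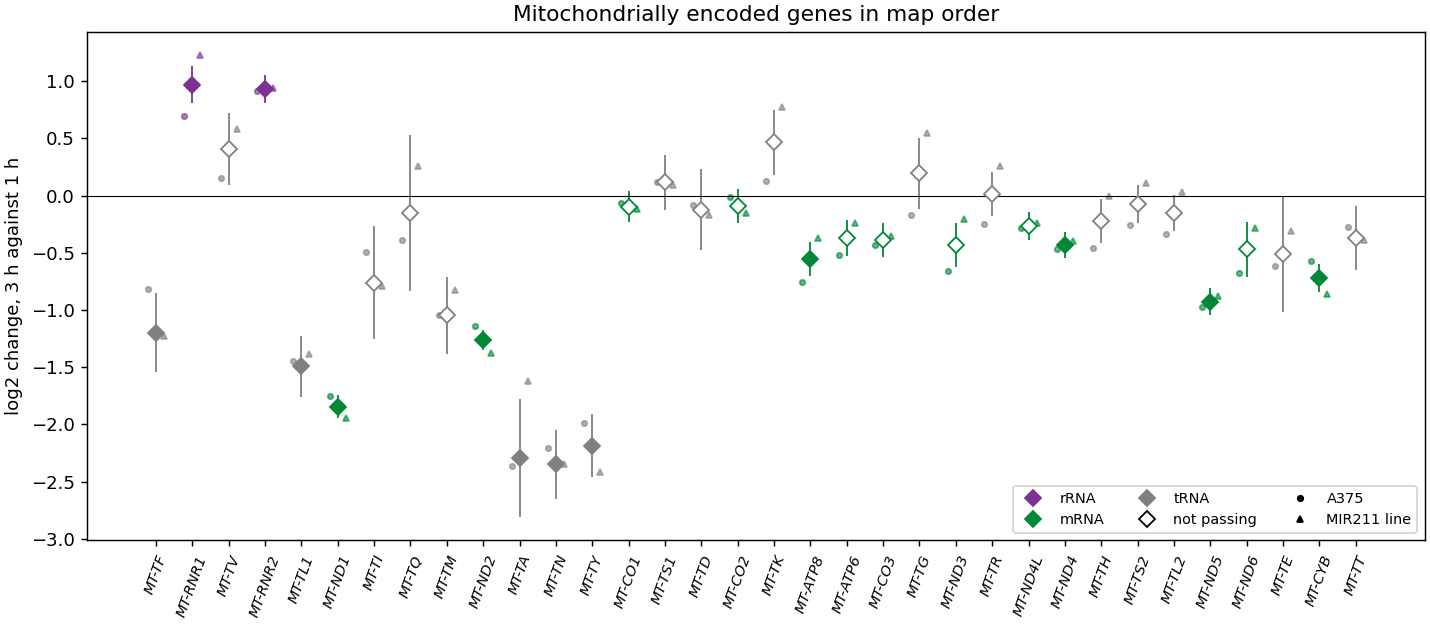
The log2 change at 3 h against 1 h (y axis) of the 34 tested mitochondrially encoded genes in map order (x axis). Diamonds with SE bars are the average of both lines, filled where the test passed, and small circles and triangles are the log2 CPM differences of A375 and the MIR211 line. Both ribosomal RNAs lie near 0.95, MT-ND1 and MT-ND2 at -1.85 and -1.26, and MT-CO1 and MT-CO2 near 0.

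By annotated kind, and with no test between kinds, of 10822 protein-coding genes tested 15.1% fell and 14.0% rose (median 0.08). Of 1246 long non-coding RNAs 22.5% fell and 3.37% rose (median -0.52), and of 119 transcripts of the provisional class TEC 38.7% fell (median -1.05). Among both kinds together, 26.8% of the 552 that lie within the span of a coding gene fell, against 21.9% of the 813 elsewhere. Of 916 processed pseudogenes, which are copies of spliced mRNAs, 19.4% rose and 12.3% fell (median 0.47).

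A group chosen after its values were seen was that of the olfactory receptor genes and pseudogenes. Of 38 tested 31 fell and none rose (median -1.94), and 36 of the 38 lie on chromosome 11. OR52D1 had 3.42 and 10.2 CPM at 3 h and 29.7 and 72.5 CPM at 1 h, a log2 change of -2.95 ± 0.19 (edgeR adjusted p = 0.00152). OR51Q1 changed by -1.98 ± 0.18. Both lie within the annotated span of OR51B5, on its other strand, and OR51B5 changed by -0.28 and did not pass (edgeR adjusted p = 0.197). The members on chromosome 11 lie close together in a few stretches, and whether they are separate transcripts was not tested.

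Gene structure is described with no test. By their reference transcripts, coding genes that fell had a median of 6 exons, those that rose 11, and all tested 10. Among single-exon genes 37.9% of 214 fell and 3.74% rose, among genes of 2 exons 40.5% of 400 fell and 3.75% rose, and among genes of more than 20 exons 8.12% of 1675 fell and 16.9% rose. The share that fell was lower in each further class, at 22.8% for 3 to 5 exons, 13.1% for 6 to 10 and 10.8% for 11 to 20.

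The 3′ untranslated region was longer in the genes that fell, with a median of 2243.5 bases, against 1062 in those that rose and 1564 in all tested. Its GC content had a median of 36.9% in genes that fell, 40.4% in those that rose and 40.3% in all. Where the region was under 500 bases, 7.66% of genes fell and 20.5% rose. From 1000 to under 2000 bases 15.4% fell and 14.2% rose, and from 2000 to under 4000 bases 19.4% fell and 10.6% rose. Genes that fell were also less abundant in the RNA-seq libraries of unlabelled cells. Their median was 23.8 CPM, against 101 CPM for genes that rose and 32.3 CPM for all. These CPM were scaled to total counts without TMM and averaged over the RNA-seq libraries. Abundance, length and exon number thus moved together, and their separate parts were not tested.

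The AU-rich nonamer TTATTTATT, a core of destabilising elements that contains the pentamer ATTTA, was searched on the transcript strand. It was found in the 3′ untranslated region of 16.0% of the 1614 coding genes that fell, 8.11% of the 1517 that rose and 10.6% of all 10782. Among genes whose region spans 1000 to 2000 bases the shares were 10.6%, 5.75% and 8.32%. Median GC content in that class was 36.3% in genes that fell and 40.2% in those that rose, and its part was not tested. Genes were also split by region length at 500, 1000, 2000 and 4000 bases. From the shortest class up, those with the nonamer had median log2 changes of -0.08, 0.16, -0.11, -0.25 and -0.15. Those without it had 0.38, 0.22, 0.07, -0.05 and -0.12. The first sites of 4 genes that fell are printed 5′ to 3′, with the nonamer in capitals and 9 bases on each side, from GENCODE 44 transcripts in hg38 coordinates. They are ZNF281 (minus strand, chr1:200406108-200406134), IER5 (plus strand, chr1:181092444-181092470), ZFP36 (plus strand, chr19:39409197-39409223) and PHLDA1 (minus strand, chr12:76029788-76029814), picked as transcription or signalling regulators with large falls after their values were seen.
ZNF281: gggcatgcaTTATTTATTatacatggc
IER5: tgtcttcctTTATTTATTtatttattt
ZFP36: atgacgactTTATTTATTctaatatga
PHLDA1: gatttatgaTTATTTATTagttttttt
In IER5 the nonamer runs on into further repeats, and its region holds 3 copies, against 1 in each of the other genes. IER5 had 1.09 and 0.683 CPM at 3 h in A375 and the MIR211 line, against 15.9 and 7.27 CPM at 1 h, a log2 change of -3.63 ± 0.32 (edgeR adjusted p = 0.00245). ZFP36, whose protein binds such elements, had 0 and 0.854 CPM at 3 h and 3.14 and 5.30 CPM at 1 h, a change of -3.38 from few counts (adjusted p = 0.0217). A match is a description of these letters and not evidence of a working element.

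The changes of the 2 lines were compared gene by gene. Across the 13703 genes the log2 CPM differences had a Pearson correlation of 0.67 and a Spearman correlation of 0.72, given as a description, since genes are not replicates. Of the 4315 tested genes at a mean log2 CPM of at least 5, 61 had changes that differed by at least 2 log2 units between the lines, and the difference between the lines was not tested. The genes described next were named for the size of this difference. The intervals below are exact 95% binomial intervals on the counts of a line's 2 libraries and cover counting error only.

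**Figure D4:**
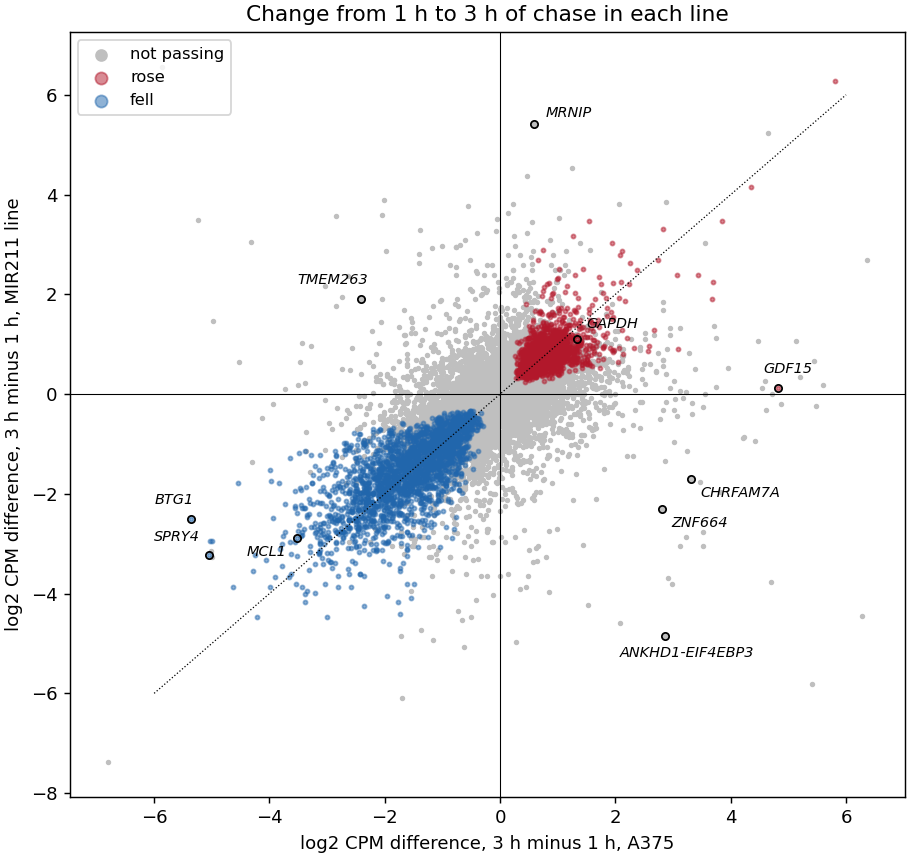
The log2 CPM difference, 3 h minus 1 h, in A375 (x axis) against that in the MIR211 line (y axis) for the 13703 genes tested, red where the averaged change rose, blue where it fell and grey where it did not pass. The dotted line marks equal change. Most called genes lie along it, while CHRFAM7A, ZNF664 and ANKHD1-EIF4EBP3 lie at the lower right and TMEM263 at the upper left.

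ANKHD1-EIF4EBP3, a read-through gene, had 3.24 CPM at 3 h and 104 CPM at 1 h in the MIR211 line, but 63.1 CPM at 3 h and 8.37 CPM at 1 h in A375. Its log2 change was -4.84 (interval -5.75 to -4.35) in the MIR211 line and 2.86 (interval 2.45 to 3.42) in A375. At 0 and 6 h it had 13.2 and 37.4 CPM in the MIR211 line and 167 and 47.2 CPM in A375. Its level thus changed direction at each step in both lines. ZNF664 had log2 differences of -2.29 in the MIR211 line and 2.81 in A375. Those of CHRFAM7A, a partial duplicate of the nicotinic receptor gene CHRNA7, were -1.70 in the MIR211 line and 3.31 in A375. In A375 the 1 h level of both was the lowest of the time course, for CHRFAM7A 2 counts, against 168 counts at 0 h. Each of the 3 overlaps another gene on its own strand in the annotation, so their reads can be split in more than one way. The same holds for the MATR3 row ENSG00000280987, with 8.02 CPM at 3 h against 9.23 CPM at 1 h in the MIR211 line and 227 against 7.33 CPM in A375.

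In the opposite sense, TMEM263, DAG1 and ATP6V1C2 were higher at 3 h in the MIR211 line and lower at 3 h in A375. DAG1, the precursor of the dystroglycan adhesion receptor, had 173 CPM at 3 h and 22.2 CPM at 1 h in the MIR211 line. In A375 it had 84.3 CPM at 3 h and 192 CPM at 1 h. At 0 and 6 h it had 22.9 and 33.0 CPM in the MIR211 line and 15.2 and 16.7 CPM in A375. Its highest library was thus that at 3 h in the MIR211 line and that at 1 h in A375. ATP6V1C2, a subunit of the vacuolar proton pump, had 109 CPM at 3 h and 13.4 CPM at 1 h in the MIR211 line. In A375 it had 31.3 CPM at 3 h and 50.7 CPM at 1 h. ATP6V1C2 overlaps RNU7-138P on its own strand, and MRNIP, described next, overlaps TBC1D9B on its own strand. Reads of these genes too can be split in more than one way. MRNIP, a DNA repair factor, was higher at 3 h in both lines, by 5.42 in the MIR211 line and 0.59 in A375. In the MIR211 line it had 320, 9.43, 420 and 435 CPM at 0, 1, 3 and 6 h, so the 1 h library was the low one. None of the averaged changes of these genes passed edgeR's test, with adjusted p-values from 0.15 to 0.975 including those of the paragraph above.

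The study's microRNA acts by pairing its seed with messages. The mature miR-211-5p, from RefSeq on GRCh38.p14 (chr15:31065095-31065116, minus strand), is printed 5′ to 3′ with the seed, bases 2 to 8, in capitals. Below it stand the 2 matches to that seed, AAAGGGA, in the 3′ untranslated region of DUSP3, a dual-specificity phosphatase reported as a target, with 8 bases on each side (hg38, minus strand, chr17:43766552-43766574 and chr17:43766228-43766250).
hsa-miR-211-5p: uUCCCUUUgucauccuucgccu
DUSP3 site 1: tggtttggAAAGGGAatgttggt
DUSP3 site 2: tggacagaAAAGGGAgagctacc
DUSP3 had 11.8 CPM at 3 h and 35.0 CPM at 1 h in the MIR211 line, against 30.5 CPM at 3 h and 27.0 CPM at 1 h in A375. The log2 change was -1.54 (interval -1.99 to -1.16) in the MIR211 line and 0.17 (interval -0.15 to 0.50) in A375. The averaged change of -0.61 ± 0.44 did not pass (edgeR adjusted p = 0.326), and the difference between the lines was not tested.

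Over all coding genes with a seed match the lines did not separate in that way. The 2289 genes with AAAGGGA on the transcript strand of the 3′ untranslated region, 21.2% of all 10782, had a median log2 change of -0.04 in the MIR211 line and -0.10 in A375, against 0.12 and 0.11 in the 8493 genes without it. The median difference between the lines was 0.04 with a match and 0.02 without. Genes with a match had longer regions, with a median of 3187 bases against 1220. Of 15 reported miR-211 targets 5 fell and 3 rose (median -0.22), with 1 rise and 6 falls by total counts and no rise and 9 falls with the glycolytic mRNAs held constant. By line the list median was -0.31 in A375 and -0.12 in the MIR211 line, and the difference was not tested. DUSP6, PDK4 (which restrains pyruvate dehydrogenase), POU3F2 (a neural and melanoma transcription factor) and TGFBR2 fell, the last 2 by -2.36 ± 0.33 and -1.25 ± 0.21 averaged over both lines. DUSP6 fell more in A375, where its counting interval lay below that of the MIR211 line. The point estimates of PDK4, POU3F2 and TGFBR2 were lower in the MIR211 line, but for each the counting intervals of the lines overlapped. For PDK4 they were -3.09 to -1.59 in the MIR211 line and -2.25 to -1.34 in A375. These differences were not tested.

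The middle interval was also set against the intervals before and after it, as log2 change per hour. These comparisons share the 1 h or the 3 h libraries, so a value that is off in one of them moves both rates. For no gene did the middle rate differ from the early rate, between 0 h and 1 h, by edgeR, although 1989 genes had an unadjusted p under 0.05 and DESeq2 called 430. The middle rate differed from the late rate, between 3 h and 6 h, for 86 genes (0.628% of those tested), 79 (0.577%) with a steeper fall or smaller rise per hour in the middle interval and 7 (0.0511%) the other way. DESeq2 called 700, leaving out the A375 0 h library left 3 and leaving out any other library left none.

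HMGA2-AS1 had the smallest p for a steeper fall in the middle interval, and its 6 h level was above its 3 h level in both lines. Its levels at 0, 1, 3 and 6 h were 146, 85.2, 9.29 and 14.5 CPM in A375 and 355, 174, 19.0 and 32.0 CPM in the MIR211 line, a rate of -1.60 per hour in the middle and 0.23 per hour late, which differed by -1.83 ± 0.10 (edgeR adjusted p = 0.0114). ZNF281 changed by -1.89 per hour in the middle and -0.09 late, a difference of -1.80 ± 0.14 (adjusted p = 0.0173). MT-ND1 had -0.92 per hour in the middle and 0.09 late, and LINC01060, a long non-coding RNA, -1.22 and -0.09. MTND1P23, which can share reads with MT-ND1, had -0.91 and 0.09.

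Of the 7 genes that went the other way, 3 had a mean log2 CPM of at least 5. HAPSTR1, a stress-response regulator, was low at 1 h, higher at 3 h and nearly gone at 6 h. Its levels at 0, 1, 3 and 6 h were 144, 63.6, 107 and 4.78 CPM in A375 and 181, 72.9, 98.7 and 5.58 CPM in the MIR211 line, so the rates were 0.30 per hour in the middle and -1.44 late, a difference of 1.74 ± 0.11 (edgeR adjusted p = 0.0114). YWHAG, an adaptor protein of the 14-3-3 family, had 159, 188, 239.7 and 81.8 CPM in A375 and 137, 162, 182 and 60.7 CPM in the MIR211 line, a difference in rate of 0.65 ± 0.08 (adjusted p = 0.034). NIPAL3 held its 3 h level to 6 h, with a difference in rate of 1.14 ± 0.14 (adjusted p = 0.0357).

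**Figure D5:**
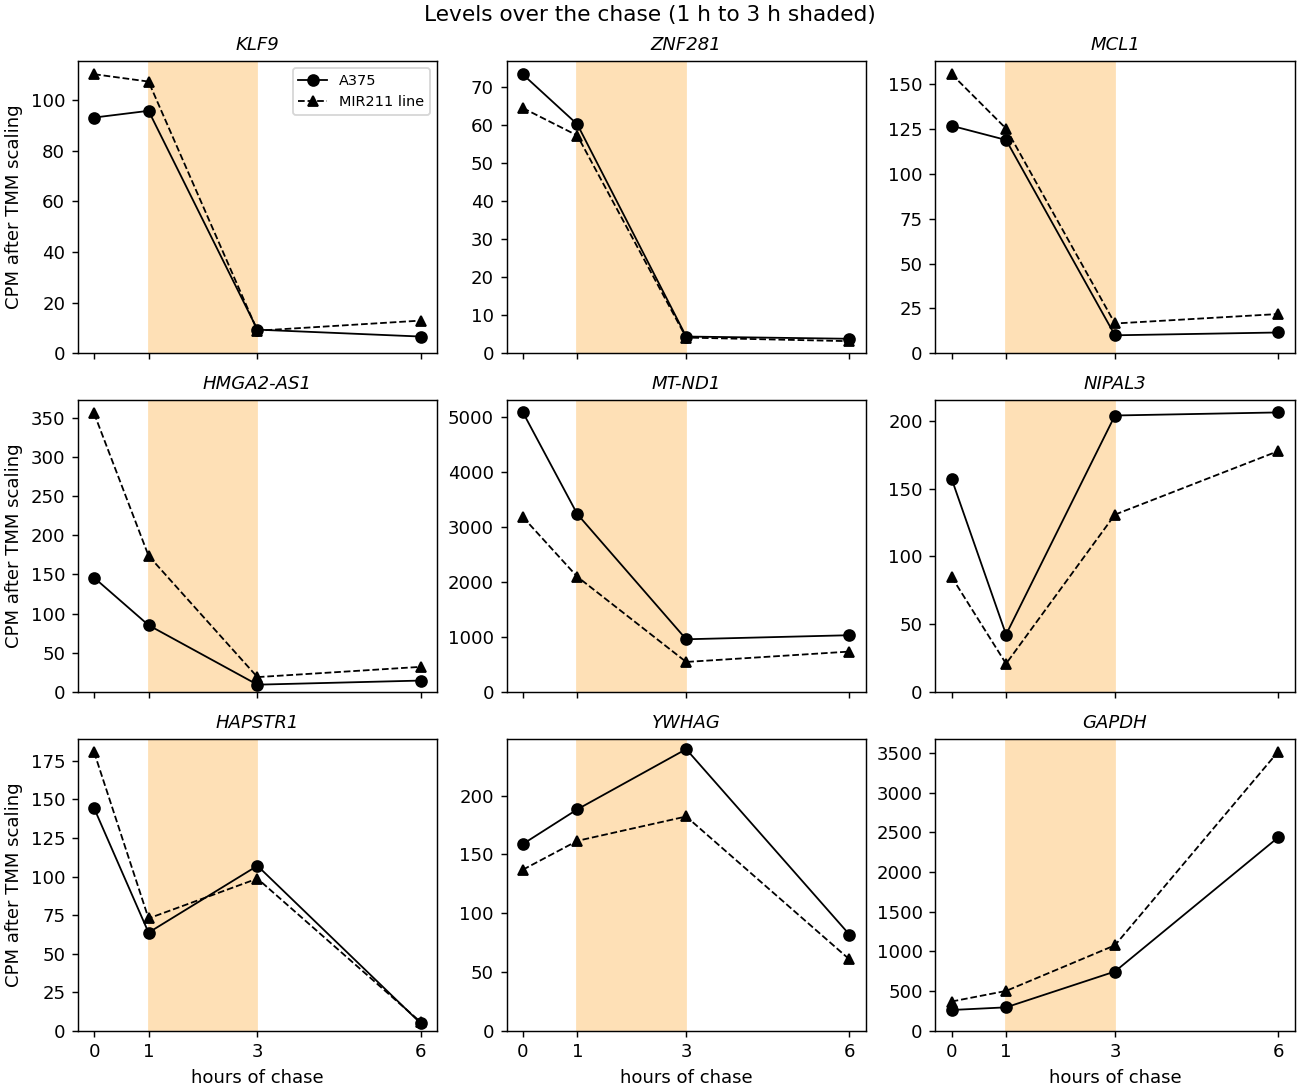
Levels of 9 genes in CPM after TMM scaling (y axes, from 0) over hours of chase (x axis), with A375 as circles on solid lines and the MIR211 line as triangles on dashed lines, 1 library per point. The shaded span is 1 h to 3 h. KLF9, ZNF281, MCL1, HMGA2-AS1 and MT-ND1 lose most of their 1 h level by 3 h and stay low. For HMGA2-AS1 and MT-ND1 the level at 1 h was already below that at 0 h in both lines. HAPSTR1 and YWHAG are higher at 3 h than at 1 h and lowest at 6 h, and GAPDH climbs to 2437 and 3519 CPM at 6 h.

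Median rates per hour of the gene lists are given on the TMM scale alone. Immediate early genes had a median of -0.23 per hour in the first hour, -1.18 in the middle interval and -0.08 in the last. For ZNF genes the medians were -0.27, -0.77 and -0.19, and for ERK output genes 0.03, -0.61 and -0.29. Ribosomal protein genes had medians of -0.46, 0.38 and 0.50, and glycolytic genes had 0.17, 0.47 and 0.48. On this scale the steepest median loss of these falling lists lay in the middle interval. The lists are termed falling by their change in that interval and were chosen with earlier results known, so this is largely built in. By edgeR no gene's middle rate differed from its early rate. The rates are not given on the other scales, which would shift them. Low counts at 3 h, such as 8 and 4 for IER5 in A375 and the MIR211 line, limit the late fall that can be seen.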

How the data were processed

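The authors deposited raw counts per Ensembl gene for 8 BRIC-seq and 4 RNA-seq libraries, aligned with HISAT2 2.1.0 and quantified with StringTie, per the submitters' processing notes. The notes name hg19 but the design text hg38; the build was therefore treated as unknown. How strand and multimapping reads were handled is not stated; the kit was stranded, per the labels' protocols. A row that names no gene (at most 0.00122% of a library's counts) was left out. Members and lists were chosen with earlier results of these data known.

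Counts of the 8 BRIC-seq libraries were fitted with edgeR 4.0.16 (TMM, quasi-likelihood, R 4.3.3) after a filter (minimum count 10), with line and time as factors and 3 residual degrees of freedom. The contrast was 3 h minus 1 h, with a Benjamini-Hochberg threshold of 0.05. The test gives no SE. Those printed were derived as the size of the log2 change divided by the square root of the test's F statistic. The line factor pairs libraries by the cell line the labels give; across genes the line differences at 3 h and 1 h correlated at 0.69. CPM of the BRIC-seq libraries are TMM-scaled. Differences within a line used a prior count of 2, with exact conditional binomial 95% intervals covering counting error only. The same steps were tested on simulated data. Alternatives were other scalings, filters, DESeq2 1.42.0, the 4 libraries alone, no line term, and each library left out. Exons, 3′ untranslated regions and positions came from GENCODE 44 (hg38), which held 56558 of 60675 rows.

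Genes named were the 12 largest rises and 12 largest falls with a symbol, a mean log2 CPM of at least 5 and one sign in both lines; the members of each list (4 at most) ranked first by p; 5 genes of each sign for each rate difference and for the difference between lines at that level; and MIR211, DUSP3, GAPDH, MT-RNR2 and MALAT1. A few genes that the rule selects are not reported here. List members named only as passing or not were read from the whole list. Markers of leukocytes (2 of 10 tested, LYZ rose) and endothelium (1 of 10 tested, not passing) summed to 9.70 and 50.5 CPM and 3.28 and 48.0 CPM at 3 h in A375 and the MIR211 line, against 7.75 and 20.2 CPM and 2.09 and 39.3 CPM at 1 h; PTPRC, CD3E, CDH5 and VWF had no count in the 4 libraries.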

Additional observations from a re-analysis of the deposited data

Results flagged for a closer look

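The row of the count table that names no gene was outside the comparisons. It held 31 and 36 counts at 3 h in A375 and the MIR211 line, against 9 and 10 counts at 1 h and 3 counts at 0 h in each line.

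Of the 4315 tested genes at a mean log2 CPM of at least 5, 61 had changes that differed by at least 2 log2 units between the lines. For 6 of those named for the largest such differences the lines moved in opposite directions with both counting intervals on opposite sides of 0, and the difference was not tested. The log2 change in the MIR211 line minus that in A375 was -7.70 for ANKHD1-EIF4EBP3, -5.10 for ZNF664 and -5.02 for CHRFAM7A. It was 4.33 for TMEM263, 4.12 for DAG1 and 3.69 for ATP6V1C2.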

How the results depend on the processing

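The 1769 rises became 675 by total counts, 25 with the glycolytic mRNAs held constant, 1002 without a count filter, 40 without the line as a pairing block, and 151 to 1664 with 1 library left out. The 2207 falls became 7567 with the glycolytic mRNAs held constant, 1344 without a filter, 440 without the pairing block, and 467 to 2330 with 1 library left out. RLE size factors, DESeq2, a minimum count of 30, mitochondrial genes left out and the 4 libraries alone kept both counts within 1.5 times. Differences of the middle from the early rate numbered 0, and 430 by DESeq2. The 86 differences from the late rate became 55 by total counts, 4 without a filter, 158 at a minimum count of 30, 700 by DESeq2, 0 without the pairing block and 0 to 3 with 1 library left out. The causes were not tested.

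With the glycolytic mRNAs held constant the log2 change turned to -0.0092 for LDHA, -0.075 for ATP5PB, -0.050 for PSMB4, -0.093 for VIM, -0.10 for HSP90AA1, -0.25 for SCD, -0.19 for SLC7A5, -0.050 for OAS3, -0.35 for KIF20A, -0.25 for RRM1, -0.34 for HNRNPA2B1, -0.21 for MALAT1, -0.36 for HAPSTR1, -0.69 for YWHAG, -0.023 for MT-RNR2, -0.74 for DAG1 and -0.047 for ATP6V1C2. Without the pairing block ZNF664 was at 0.61 and TMEM263 at 0.24, and ZNF664 was at 0.27 with the 4 libraries alone. With 1 library left out in turn, these genes, none of which passed in the full fit, ranged on both sides of 0: -4.13 to 2.45 for ANKHD1-EIF4EBP3, -1.64 to 2.42 for ZNF664, -1.82 to 4.27 for CHRFAM7A, -1.93 to 1.57 for TMEM263, -1.12 to 2.89 for DAG1, -0.24 to 2.69 for ATP6V1C2, -1.48 to 0.043 for DUSP3 and -0.23 to 0.057 for MT-CO1. Counts under about 10 at 3 h, as in ZFP36 and BTG2, limit the size that can be given to a fall.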
